A study of Mus musculus with 39 samples.

Results

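Late AE9a leukaemia was set against normal bone marrow in mice. The samples were taken by their titles, which put 3 arrays in the AE9a passage 4 group and 3 in the normal control group, 6 of the 39 arrays of the series. AE9a is a truncated splice form of AML1-ETO (RUNX1-RUNX1T1), the fusion protein of t(8;21) acute myeloid leukaemia. The AE9a passage 4 mice were recipients in the last of a row of bone marrow transplantations, and nothing in the labels says that miR-126 was altered in them. The normal controls were recipients of the passage 1 transplantation without leukaemia, so leukaemia and passage cannot be told apart when these groups are compared. All 6 mice shared the handling of the series: cells carrying CD45.1, the form that marks transplanted donor cells, were sorted from whole marrow, in sick recipients at end stage, and their total RNA was put on an Affymetrix Mouse Gene 2.0 ST array. The sources used here do not give the strain, sex and age of the mice, the vector that carried AE9a or the number of donors. Another group, 3 AE9a mice at passage 1, is used where late leukaemia is set against early leukaemia.

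The runt domain of RUNX1 binds DNA with the partner protein CBFB and regulates genes of myeloid, lymphoid and megakaryocytic differentiation. AML1-ETO keeps this domain and joins it to RUNX1T1, a protein that recruits corepressors, and AE9a lacks a C-terminal stretch of that part and causes leukaemia in mice more readily than the whole fusion. Normal marrow holds maturing neutrophils, monocytes, erythroblasts and B cell precursors beside a small number of stem and progenitor cells, whereas leukaemic marrow is dominated by cells of the leukaemic clone.

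Values are log2 expression, and each unit of difference doubles the level. The SD over probe sets was 1.99 to 2.06 on the AE9a passage 4 arrays and 1.87 to 2.08 on the normal control arrays, and the correlations between mice of a group ran from 0.977 to 0.991 and from 0.966 to 0.986. Of 22180 genes tested, 975 (4.4%) passed at an adjusted p under 0.05 by limma's moderated test, 511 of them higher in AE9a passage 4 (2.3%) and 464 lower (2.09%). At least 2-fold differences were found for 376 higher (1.7%) and 237 lower genes (1.07%), and at least 8-fold differences for 31 and 28. In 4854 genes (21.9%) all 3 mice of one group lay above all 3 of the other, 2621 with AE9a passage 4 on top (11.8%) and 2233 with it below (10.1%), and the median difference over all genes was -0.02. Without AE9a passage 4 mouse 2 or 3 the count of 975 fell to 582 and 537. The p-values measure only the spread between mice within groups, taken over all 13 groups of the series and not these 2 alone. The number of arrays limits the precision, and in sorted bulk RNA fewer cells of a type and less RNA per cell cannot be told apart.

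The genes with the largest differences fell into a few kinds. Stefin A genes, which encode inhibitors of cysteine cathepsins, made up 5 of the 14 largest rises, and immunoglobulin segments or the joining chain made up 8 of the 14 largest falls. Secreted inflammatory proteins (Il1a, Cxcl3, Ccl7, Saa3), the cytokine signalling inhibitor Cish, the granule protease Gzmb, the ERBB receptor inhibitor Errfi1, the cyclin-dependent kinase inhibitor Cdkn1a and the extracellular matrix gene Ecm1 were the other rises. The other falls were the B cell transcription factor Spib, the sialic acid hydroxylase Cmah, the adhesion molecule Ncam1, the chitinase-like gene Chil5, the eosinophil granule gene Prg2 and the basophil protease Mcpt8. In all 28 the groups did not overlap, which was part of how they were chosen.

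**Figure D1:**
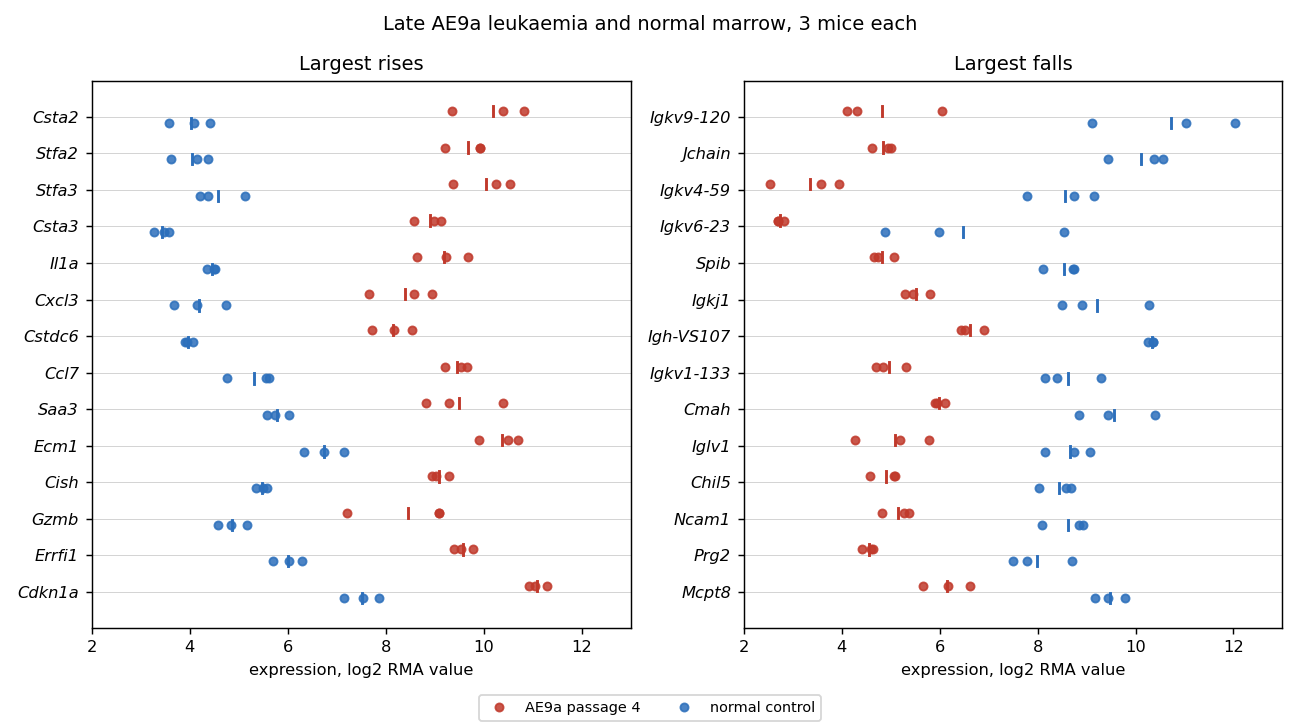
Log2 expression (horizontal axes) of the 14 largest rises and 14 largest falls, with a point for each of 3 AE9a passage 4 mice (red, upper of each pair) and 3 normal controls (blue) and a bar at each mean. Red and blue points are apart in every gene, and AE9a passage 4 mouse 1 is the red point farthest to the left for Gzmb at 7.21.

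Stefin A genes rose together. Csta2 measured 9.35, 10.4 and 10.82 in the AE9a passage 4 mice, against 3.57, 4.09 and 4.42 in the normal controls, a 71.6-fold difference in RMA values (log2 difference 6.16 ± 0.70, SE, adjusted p 7.71e-07). Stfa2 measured 9.21, 9.92 and 9.92 in the AE9a passage 4 mice, against 4.15, 4.38 and 3.61 in the normal controls (5.64 ± 0.83, adjusted p 4.56e-05). Csta3 measured 8.57, 8.99 and 9.13 in the AE9a passage 4 mice, against 3.58, 3.47 and 3.28 in the normal controls (5.46 ± 0.75, adjusted p 1.61e-05). The leukaemic mice lay far above every control in these genes, and mouse 1 was the lowest of the leukaemic mice for all 3 genes. The controls were dim in them, since the 10th percentile of the 6 arrays was 3.41 to 3.66. With no detection call in the values used here, and with genes picked for their large rises, the size of such fold differences is uncertain. Of the 11 genes of the cluster measured, 8 passed, all higher, with a median difference of 3.42. Stfa3 (5.48), Cstdc6 (4.18), Stfa1 (3.42), Cstdc3 (3.28) and Cstdc5 (1.12) were the others that passed. Cstdc4 differed by 2.94 with an adjusted p of 0.0562, Stfa2l1 by 2.03 with an adjusted p of 0.308 and Csta1 by 0.21 with an adjusted p of 0.796. The cluster was chosen by symbol after its values were seen, and its neighbouring genes are near copies of each other, so how far their probes share signal was not tested.

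Of the 28 genes with the largest differences, 17 had a promoter window in the table, from 250 bases before to 50 bases after the start, and 7 of these held the RUNX core. The windows printed here were chosen from those 7, the first 2 rises and Mcpt8, and show where the letters of the RUNX core, TGTGGT or its reverse complement ACCACA, stand in them. Capitals mark these letters, each window is given 5′ to 3′ on the strand of its gene, and the sequences are those of RefSeq on GRCm38.p6.
Csta2, chr16:36221312-36221611, plus strand: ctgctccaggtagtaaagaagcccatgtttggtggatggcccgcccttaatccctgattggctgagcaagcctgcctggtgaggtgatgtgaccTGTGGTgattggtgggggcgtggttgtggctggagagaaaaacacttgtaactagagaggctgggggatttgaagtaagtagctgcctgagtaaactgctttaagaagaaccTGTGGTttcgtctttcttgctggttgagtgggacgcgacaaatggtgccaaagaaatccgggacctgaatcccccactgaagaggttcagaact
Stfa2, chr16:36408314-36408613, minus strand: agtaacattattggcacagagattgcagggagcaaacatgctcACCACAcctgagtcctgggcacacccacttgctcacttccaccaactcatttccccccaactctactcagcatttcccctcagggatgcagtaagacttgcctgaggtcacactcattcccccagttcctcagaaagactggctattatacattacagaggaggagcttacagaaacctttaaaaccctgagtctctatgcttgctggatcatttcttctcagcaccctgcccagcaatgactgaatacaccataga
Mcpt8, chr14:56085148-56085447, minus strand: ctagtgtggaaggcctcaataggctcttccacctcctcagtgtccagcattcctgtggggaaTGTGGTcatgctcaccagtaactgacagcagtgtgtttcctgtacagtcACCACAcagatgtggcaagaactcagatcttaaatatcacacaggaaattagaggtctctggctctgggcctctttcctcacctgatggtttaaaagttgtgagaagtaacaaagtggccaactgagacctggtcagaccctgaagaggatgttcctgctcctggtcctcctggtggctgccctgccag
The Csta2 window held the letters at positions -156 and -44 from the start, the Stfa2 window at -207 and the Mcpt8 window at -188 and -139. Windows were at hand for 386 of the genes that passed higher, of which 79 (20.5%) held the RUNX core on either strand, and for 359 that passed lower, of which 82 (22.8%) held it. Among all 16990 tested genes with a window the share was 16.6%. The letters of the PU.1 core, GAGGAA, were held by 32.1% of higher genes, 34.8% of lower genes and 30.2% of all genes with a window. AGATAA, read by GATA factors, was held by 11.4%, 10.6% and 11.2%. A gene with several windows was counted as holding the letters if any of its windows did. These shares describe letters in these windows and no test was made of them.

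Inflammatory and immediate early genes rose as a group. Of 28 measured, 18 passed, all higher, with a median difference of 1.98. In 26 of the 28 every AE9a passage 4 mouse lay above every normal control, as in 11.8% of all genes. The mean over the list was 9.93, 10.08 and 9.99 in the AE9a passage 4 mice, against 7.99, 8.51 and 7.63 in the normal controls.

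Among the cytokines of the list, Il1a, which encodes interleukin 1 alpha, measured 9.23, 9.68 and 8.65 in the AE9a passage 4 mice, against 4.36, 4.51 and 4.5 in the normal controls, a 26.6-fold difference (4.73 ± 0.83, adjusted p 0.000409). Tnf, the gene of tumour necrosis factor, measured 11, 11.68 and 11.18 in the AE9a passage 4 mice, against 9.3, 9.28 and 7.94 in the normal controls (2.45 ± 0.43, adjusted p 0.000445). Il10, which encodes an anti-inflammatory cytokine, also passed (2.54 ± 0.56, adjusted p 0.00517). The groups were apart in these 3 genes, and mouse 3 was the lowest normal control for Tnf and Il10. Il6 differed by 1.68 (adjusted p 0.174) and Il1b by 1.23 (adjusted p 0.473) without passing, although neither gene's groups overlapped.

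Immediate early transcription factors, which growth factor and stress signals switch on within minutes, made up a further block of the list. Jun, a subunit of AP-1, measured 12.24, 12.45 and 12.44 in the AE9a passage 4 mice, against 10.66, 10.78 and 10.42 in the normal controls (1.76 ± 0.21, adjusted p 2.39e-06). Egr2, a zinc finger factor of monocytic differentiation, measured 9.82, 9.86 and 10.05 in the AE9a passage 4 mice, against 7.31, 7.27 and 6.87 in the normal controls (2.76 ± 0.44, adjusted p 0.000118). Both genes had narrow ranges in both groups. Fosb (2.79), Atf3 (2.51), Egr1 (2.52), Egr3 (2.38) and Junb (1.23) also passed, whereas Fos differed by 0.80 with an adjusted p of 0.54 and Nr4a1 by 1.56 with an adjusted p of 0.124. Ier3, an early gene that restrains apoptosis, had the lowest adjusted p of the list (2.72 ± 0.31, adjusted p 7.25e-07).

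Inhibitors of NF-kB signalling, which are themselves targets of that pathway, were among the rises. Tnfaip3, which encodes the ubiquitin-editing enzyme A20, measured 10.4, 10.18 and 9.95 in the AE9a passage 4 mice, against 7.47, 8.1 and 7.44 in the normal controls (2.50 ± 0.33, adjusted p 8.86e-06). Nfkbia, which encodes the inhibitor that holds NF-kB in the cytoplasm, differed by 1.43 ± 0.24 (adjusted p 0.000251) and Nfkbiz by 1.62 ± 0.43 (adjusted p 0.023). The adhesion molecule Icam1, another target, differed by 1.98 ± 0.40 (adjusted p 0.00246). Cxcl1 measured 4.83, 4.47 and 4.63 in the AE9a passage 4 mice, against 4.04, 4.9 and 4.82 in the normal controls, and differed by 0.05 (adjusted p 0.955), which makes it the member with the smallest difference.

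**Figure D2:**
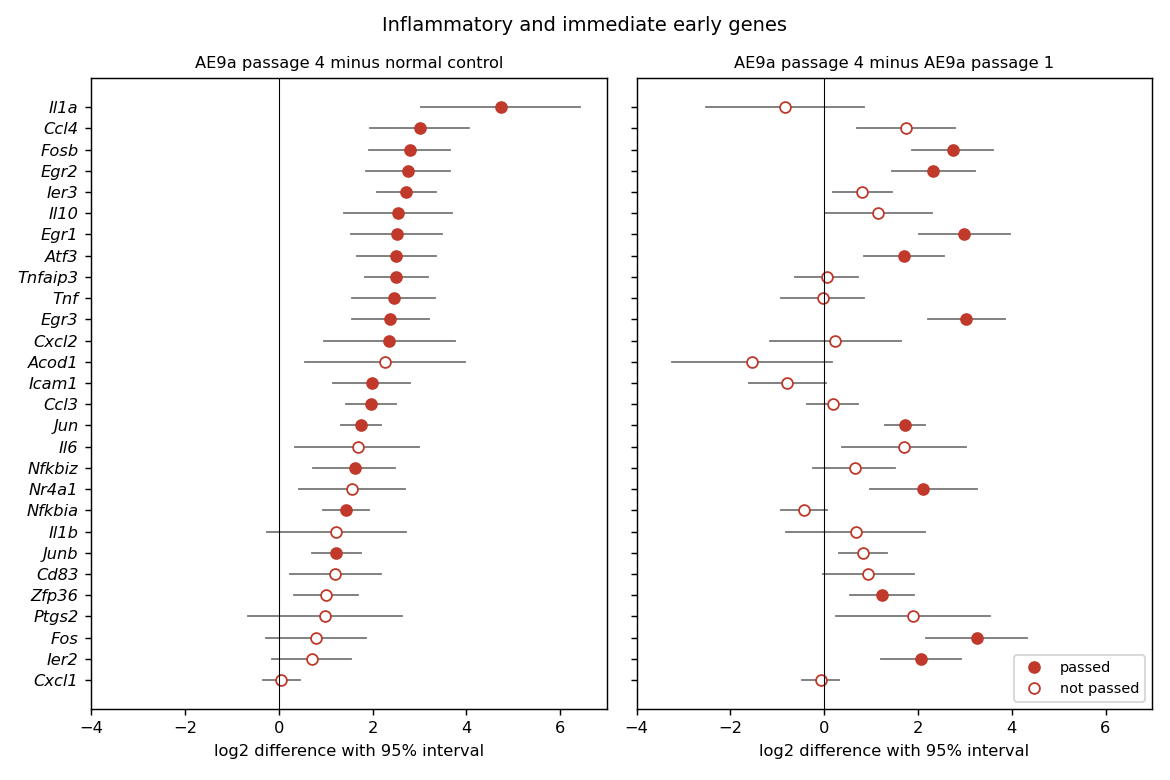
Log2 differences with 95% intervals for 28 inflammatory and immediate early genes, AE9a passage 4 minus normal control (left) and AE9a passage 4 minus AE9a passage 1 (right), filled where the gene passed. On the left 18 genes passed and on the right 10, and Il1a, Tnf, Tnfaip3 and Ccl3 passed on the left only.

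Chemokine ligands, the secreted proteins that attract leukocytes, were taken by symbol after values were seen. Of 34 measured, 11 passed higher and 2 lower, with a median difference of 0.20. Ccl2, a monocyte attractant, measured 11.37, 11.45 and 11.48 in the AE9a passage 4 mice, against 7.42, 7.89 and 8.57 in the normal controls, an 11.1-fold difference (3.47 ± 0.69, adjusted p 0.00189). Ccl7, another monocyte attractant, measured 9.21, 9.66 and 9.53 in the AE9a passage 4 mice, against 4.76, 5.56 and 5.61 in the normal controls (4.16 ± 0.66, adjusted p 0.000125). Cxcl3, a ligand for the neutrophil receptor CXCR2, measured 7.67, 8.58 and 8.94 in the AE9a passage 4 mice, against 3.67, 4.74 and 4.15 in the normal controls (4.21 ± 0.82, adjusted p 0.00134). All 3 ligands were far apart between the groups, and Ccl2 was nearly equal among the leukaemic mice. The CXCR3 ligands Cxcl10 (3.00) and Cxcl9 (2.33) passed as well, and so did Ccl4 (3.01), Ccl3 (1.97), Ccl5 (1.85), Cxcl2 (2.36), Cxcl16 (2.08) and Cxcl15 (1.51). Cxcl12, the ligand that stromal cells use to hold progenitors in the marrow, was lower at 5.24, 5.13 and 5.23 in the AE9a passage 4 mice, against 6.85, 6.02 and 7 in the normal controls (-1.43 ± 0.17, adjusted p 2.52e-06), and Xcl1 was lower too (-1.22, adjusted p 0.000621). Cxcr4, the receptor of Cxcl12, differed by -0.12 (adjusted p 0.95) and stands on the list of 13 homing and adhesion receptors, of which Cd44, the hyaluronan receptor (1.79 ± 0.32, adjusted p 0.000545), and Itga5, a fibronectin receptor subunit (1.79 ± 0.51, adjusted p 0.0377), passed higher. Itga5 did not pass without any of the 6 mice, with adjusted p from 0.0858 to 0.111.

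B cell genes fell. Of 20 measured, 18 passed, all lower, with a median difference of -2.26, and the mean over the list was 5.39, 5.28 and 5.52 in the AE9a passage 4 mice, against 7.96, 7.4 and 7.23 in the normal controls. The transcription factors that specify and keep the lineage were among them. Ebf1 measured 5.52, 4.91 and 5.83 in the AE9a passage 4 mice, against 9.18, 8.34 and 7.83 in the normal controls (-3.03 ± 0.43, adjusted p 2.41e-05). Pax5 measured 5.34, 5.09 and 5.63 in the AE9a passage 4 mice, against 7.56, 7.26 and 6.37 in the normal controls (-1.70 ± 0.22, adjusted p 7.08e-06). Spib measured 4.74, 4.67 and 5.06 in the AE9a passage 4 mice, against 8.74, 8.12 and 8.73 in the normal controls (-3.71 ± 0.39, adjusted p 1.8e-07). No leukaemic mouse reached the lowest control for these factors. Genes of the B cell receptor complex and its coreceptors fell too, with log2 differences of -2.25 for Cd79a, -2.26 for Cd79b, -2.49 for Cd22, -2.40 for Cr2 and -3.15 for Ms4a1, which encodes CD20. Of the pre-B cell genes, Igll1 (-3.00) and Vpreb3 (-1.15) passed, while Vpreb1 differed by -0.33 with an adjusted p of 0.288 and Dntt by -1.14 with an adjusted p of 0.263.

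Immunoglobulin segments and the joining chain, gathered by symbol after values were seen, gave 22 measured genes, of which 17 passed, all lower, with a median of -3.20. Jchain, which links IgM and IgA into polymers in plasma cells, measured 5, 4.95 and 4.61 in the AE9a passage 4 mice, against 10.56, 10.37 and 9.43 in the normal controls, a 38.5-fold lower level (-5.27 ± 0.48, adjusted p 1.28e-08). Igkv9-120, a kappa variable segment, measured 4.31, 4.1 and 6.04 in the AE9a passage 4 mice, against 12.03, 11.04 and 9.11 in the normal controls (-5.91 ± 0.81, adjusted p 1.65e-05). Ighm, the mu constant gene, measured 10.28, 9.82 and 9.83 in the AE9a passage 4 mice, against 12.51, 12.04 and 11.61 in the normal controls, and with a difference of -2.08 it did not pass (adjusted p 0.0533). Its groups did not overlap, and neither did those of 20 of the 22 genes. Variable segments are close in sequence, so a probe set may take signal from several, which was not tested.

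Genes of eosinophils and basophils were the next to fall. Of 17 mast cell, basophil and eosinophil genes, 7 passed lower and 1 higher, with a median of -0.44. Prg2, the gene of eosinophil major basic protein, measured 4.41, 4.6 and 4.64 in the AE9a passage 4 mice, against 8.7, 7.79 and 7.49 in the normal controls (-3.45 ± 0.27, adjusted p 5.65e-10). Prss34, a basophil protease, measured 6.14, 5.81 and 5.4 in the AE9a passage 4 mice, against 8.74, 9.24 and 8.39 in the normal controls (-3.00 ± 0.26, adjusted p 4.37e-09). Mcpt8, the basophil protease whose promoter window is shown above, measured 5.67, 6.63 and 6.17 in the AE9a passage 4 mice, against 9.79, 9.18 and 9.44 in the normal controls (-3.31 ± 0.50, adjusted p 6.02e-05). These 3 granule genes did not overlap between groups. Epx, the eosinophil peroxidase gene (-2.41), Prg3 (-0.97), the interleukin 5 receptor gene Il5ra (-1.09) and the eotaxin receptor gene Ccr3 (-1.03) were the others that passed lower. Siglecf, a lectin of eosinophils and some macrophages, went the other way at 7.85, 8.41 and 8.51 in the AE9a passage 4 mice, against 6.66, 6.6 and 5.53 in the normal controls (1.99 ± 0.44, adjusted p 0.00522).

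Mast cell genes of the same list gave other values. Cpa3, the mast cell carboxypeptidase gene, measured 11.48, 10.16 and 10.09 in the AE9a passage 4 mice, against 10.03, 8.78 and 8.91 in the normal controls, a difference of 1.34 that did not pass (adjusted p 0.426). Ms4a2, the beta chain of the high-affinity IgE receptor, measured 9.36, 6.46 and 5.05 in the AE9a passage 4 mice, against 7.29, 6.31 and 7.78 in the normal controls (adjusted p 0.958). Mouse 1 was the highest leukaemic mouse in both genes. The tryptase and chymase genes Tpsb2, Tpsab1, Cma1 and Mcpt4 did not pass, with differences from -0.14 to 0.75.

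Red cell genes differed most between the leukaemic mice themselves. The mean over 22 genes was 7.49, 5.93 and 5.61 in the AE9a passage 4 mice, against 7.51, 7 and 7.1 in the normal controls, so mouse 1 lay within the range of the controls and mice 2 and 3 below it. Of the list, 4 genes passed, all lower, with a median of -0.73, and without mouse 1 the count was 12. Aqp1, the water channel of the red cell membrane, measured 6.15, 5.7 and 5.66 in the AE9a passage 4 mice, against 8.91, 8.34 and 8.25 in the normal controls (-2.67 ± 0.20, adjusted p 5.65e-10). Slc4a1, the band 3 anion exchanger, measured 6.01, 5.99 and 5.74 in the AE9a passage 4 mice, against 7.91, 7.38 and 6.45 in the normal controls (-1.33 ± 0.28, adjusted p 0.00271). Car1, a carbonic anhydrase of erythroid cells, measured 10.85, 8.16 and 6.39 in the AE9a passage 4 mice, against 10.45, 9.18 and 10.32 in the normal controls (adjusted p 0.284). Aqp1 and Slc4a1 were low in mouse 1 as in the other leukaemic mice, while Car1 was not. Hemgn (-1.23) and the Rh blood group gene Rhd (-1.60) were the others that passed, and Rhd overlapped between the groups because mouse 1 stood at 7.89. Rhd did not pass without mouse 2 or 3 or normal control 1 or 3, with adjusted p up to 0.213. Of 9 haem synthesis genes 0 passed with limma, 3 had an unadjusted p under 0.05, and the median was -0.47.

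Mouse 1 also stood apart from mice 2 and 3 on other lists. Its mean over cell cycle genes was 8.77, with 8.01 and 8.17 in the other leukaemic mice, against 9.21, 9 and 8.7 in the normal controls. Its mean over mast cell, basophil and eosinophil genes was 6.01, with 5.52 and 5.38 in the other leukaemic mice, against 6.57, 6.24 and 6.3 in the normal controls. Its mean over T and NK cell genes was 6.14, with 7.23 and 6.96 in the other leukaemic mice, against 6.69, 6.11 and 6.08 in the normal controls. Without mouse 1 the overall count of passed genes was 886, and the counts of the B cell and inflammatory lists stayed within 1.5 times their values without any of the 6 mice. The part of these differences in cell type genes in the other results was not tested.

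**Figure D3:**
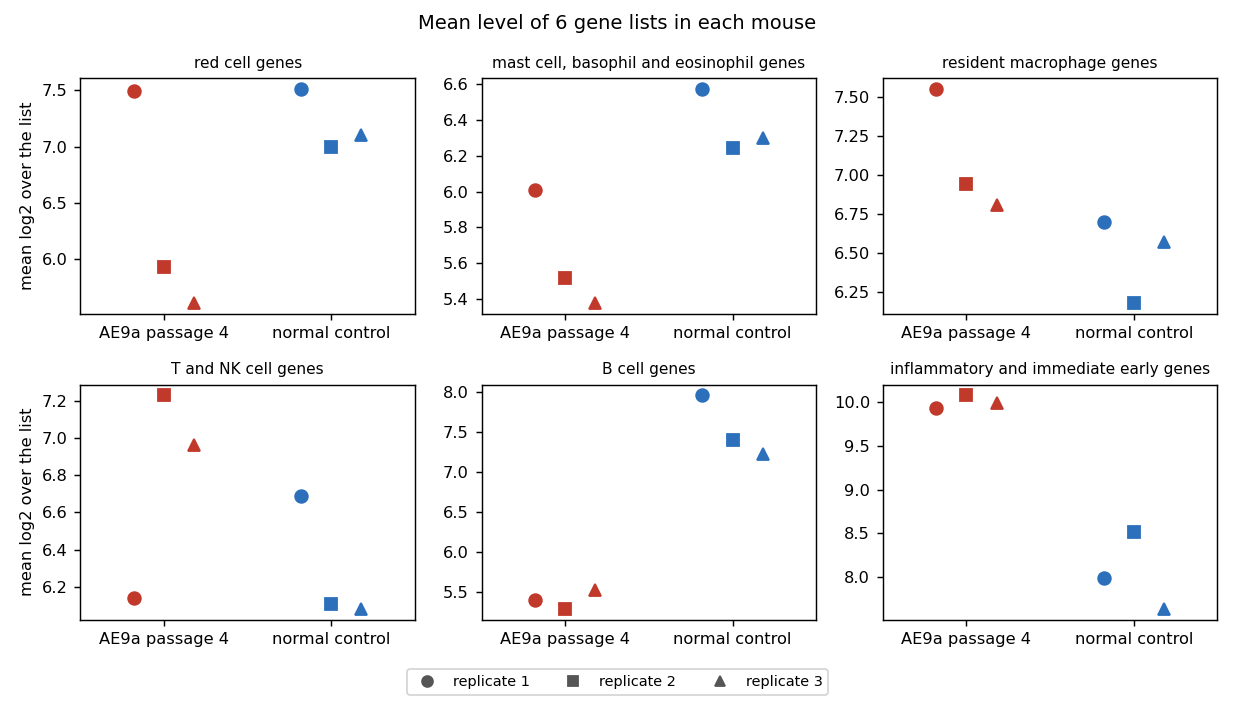
Mean log2 level of 6 gene lists (vertical axes, each with its own range) in each AE9a passage 4 mouse (red, left) and each normal control (blue, right), with marker shape for the replicate number. B cell and inflammatory lists separate the groups, while mouse 1 of AE9a passage 4 is at 7.49 on the red cell list and its group mates are at 5.93 and 5.61.

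T and NK cell genes moved both ways. Of 21 measured, 5 passed higher and 3 lower, with a median of 0.20. Gzmb, the gene of granzyme B, a protease of cytotoxic granules, measured 7.21, 9.08 and 9.1 in the AE9a passage 4 mice, against 5.17, 4.58 and 4.85 in the normal controls, a 12.1-fold difference (3.60 ± 0.49, adjusted p 1.33e-05). Prf1, the gene of perforin, measured 7.14, 9.33 and 9.07 in the AE9a passage 4 mice, against 6.9, 6.67 and 6.19 in the normal controls (1.93 ± 0.31, adjusted p 0.000176). Cd3e, a chain of the T cell receptor complex, measured 8.16, 9.79 and 9.6 in the AE9a passage 4 mice, against 7.86, 7.95 and 6.87 in the normal controls (1.62, adjusted p 0.017). Mice 2 and 3 were higher than mouse 1 in all 3 genes, and the groups did not overlap. Cd8a (1.46) and Ccl5 (1.85) passed too, and Cd8a overlapped between groups. The NK cell receptors Klrd1 (-1.06) and Ncr1 (-1.48) and the lymphoid factor Lef1 (-0.95) were lower, and Cd4 and Cd2 did not pass, with differences of -0.07 and -0.16. The count of higher genes was 9 without mouse 1, 2 without mouse 2 or mouse 3 and 3 without normal control 3, and the count of lower genes was 1 without normal control 1. With only these 2 groups in the fit Prf1 had an adjusted p of 0.0626, Cd3e of 0.0725, Ncr1 of 0.163 and Lef1 of 0.114. Lef1 was also lost without mouse 1 or 3 or normal control 1, and Cd3e without mouse 2 or 3 or normal control 3.

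Macrophage, monocyte and interferon genes gave a small number of rises. C1qb, a chain of complement C1q that tissue macrophages make, measured 10.24, 9.51 and 8.85 in the AE9a passage 4 mice, against 7.55, 6.55 and 6.9 in the normal controls (2.53 ± 0.67, adjusted p 0.0218). Mertk, a receptor for apoptotic cells, differed by 2.29 ± 0.63 (adjusted p 0.0307), and these were the 2 of 15 resident macrophage genes that passed. In both genes mouse 1 was the highest, and neither passed without mouse 1, mouse 2 or normal control 2, nor C1qb without normal control 3, nor Mertk without mouse 3 or normal control 1. Of 20 monocyte genes 2 passed, Cd14, the lipopolysaccharide coreceptor, at 10.21, 11.26 and 11.04 in the AE9a passage 4 mice, against 6.76, 7.98 and 7.27 in the normal controls (adjusted p 9.45e-05), and Vcan, a proteoglycan of classical monocytes (1.98, adjusted p 0.0301). Vcan was lost without mouse 1 or 3 or normal control 1 or 2. Csf1r, the receptor of macrophage colony-stimulating factor, differed by 0.39 (adjusted p 0.799) and Ly6c2 by 0.03 (adjusted p 0.977). Of 26 interferon response genes the 2 that passed were the chemokines Cxcl10 and Cxcl9, and without mouse 1 the count was 5.

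Granulocyte genes did not pass in number. Of 27 mature neutrophil genes 0 passed with limma on all arrays, 2 had an unadjusted p under 0.05, the median was -0.42, and with a fit on these 6 arrays 3 passed higher and 3 lower. The leukaemic mice were all below the controls in 15 of the 27 and all above in 3, while over all genes this held for 10.1% and 11.8%. Ly6g, which marks neutrophils, measured 10.85, 10.28 and 10.75 in the AE9a passage 4 mice, against 11.99, 12.03 and 12.15 in the normal controls (-1.43 ± 0.94, adjusted p 0.54). The mice of each group lay close together, and the SE rests on the spread within all 13 groups of the series. Of 12 primary granule genes, which are made at the promyelocyte stage, Prss57 passed (-1.66 ± 0.38, adjusted p 0.00631), while Mpo, the myeloperoxidase gene, differed by -1.08 (adjusted p 0.322) and Elane by -0.89 (adjusted p 0.51). Both lay below the controls in every leukaemic mouse.

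Stem cell and leukaemia genes gave isolated calls. Sox4, a transcription factor of progenitors, measured 7.59, 8.88 and 8.84 in the AE9a passage 4 mice, against 6.66, 5.57 and 6.32 in the normal controls (2.25 ± 0.49, adjusted p 0.00419), and Hlf, which marks stem cells, was lower (-0.74, adjusted p 0.00662). They were the members of 21 stem and progenitor genes that passed, and Kit (-0.52, adjusted p 0.662) and Cd34 (-1.14, adjusted p 0.275) did not. Hoxa9, a homeobox gene of progenitors, measured 4.53, 4.58 and 4.63 in the AE9a passage 4 mice, against 5.43, 5.76 and 6.04 in the normal controls (-1.16 ± 0.18, adjusted p 9.78e-05). It alone passed among 11 genes of the Hoxa cluster and its cofactors, and its cofactor Meis1 differed by -0.60 (adjusted p 0.267). Runx1t1, the mouse gene of the fusion partner, measured 5.76, 6.14 and 6.23 in the AE9a passage 4 mice, against 5.48, 5.08 and 5.47 in the normal controls (0.70 ± 0.20, adjusted p 0.0368), a call that was lost without each mouse but AE9a passage 4 mouse 1. Runx1 measured 9.91, 9.78 and 9.82 in the AE9a passage 4 mice, against 9.35, 9.22 and 9.2 in the normal controls and did not pass (0.58 ± 0.25, adjusted p 0.232). The sources used here do not say whether these probe sets read the AE9a transgene, so neither gene checks the labels.

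Genes of growth control and signalling rose singly or in small groups. Cdkn1a, which encodes p21, measured 11.04, 10.93 and 11.29 in the AE9a passage 4 mice, against 7.15, 7.54 and 7.87 in the normal controls, an 11.8-fold difference (3.56 ± 0.31, adjusted p 6.35e-09). Cish, an inhibitor of cytokine receptor signalling that STAT5 switches on, measured 9.02, 8.95 and 9.29 in the AE9a passage 4 mice, against 5.35, 5.57 and 5.49 in the normal controls (3.62 ± 0.33, adjusted p 1.28e-08). Errfi1 measured 9.54, 9.39 and 9.79 in the AE9a passage 4 mice, against 5.7, 6.03 and 6.29 in the normal controls (3.56 ± 0.52, adjusted p 3.93e-05). In each of these genes the gap between the groups was several times the range within either group. Of 18 p53 target genes 4 passed, all higher: Cdkn1a, Perp (2.16), Plk2 (2.57) and Sesn2 (1.38), with a list median of 0.17, and the count was 1 without mouse 3 and 2 without mouse 2 or without normal control 1. Sesn2 passed only without mouse 1 among these omissions, with adjusted p up to 0.283. Mdm2, the ubiquitin ligase of p53, differed by 1.01 (adjusted p 0.0869). Of 14 ERK feedback genes 3 passed, all higher: Errfi1, the phosphatase gene Dusp5 (2.47 ± 0.31, adjusted p 5.21e-06) and Phlda1 (1.25, adjusted p 0.0156, lost without any of the leukaemic mice or without normal control 1, up to 0.0872), while Dusp6 (1.26, adjusted p 0.338) and Spred1 (1.05, adjusted p 0.115) did not. The count of 3 was 6 without arrays of low spread and 9 with array weights. Over all 22180 genes the count of higher genes was 1012 and 1887 in these settings, against 511 in the main fit. The myeloid transcription factor list added Id1, an inhibitor of basic helix-loop-helix factors, at 8.88, 9.38 and 9.62 in the AE9a passage 4 mice, against 6.49, 6.9 and 6.59 in the normal controls (2.63 ± 0.39, adjusted p 5.55e-05).

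Of 32 cell cycle genes only Ttk, a spindle checkpoint kinase, passed (-1.19, adjusted p 0.0474), and it was lost without each mouse but AE9a passage 4 mouse 1. The count of lower genes was 4 with only the groups compared in the fit, 5 without arrays of low spread, 7 with array SD in the model and 23 with array weights, and 0 after quantile normalization. Over all 22180 genes the lower counts in these settings were 426, 918, 1093, 2428 and 494, against 464 in the main fit. The median of the list was -0.70, and Mki67 (-0.71, adjusted p 0.427) and Top2a (-1.08, adjusted p 0.27) did not pass. Every leukaemic mouse lay below every control in 10 of the 32 genes, and in 10.1% of all genes. Of 27 MYC and ribosome biogenesis genes only Heatr1 passed (1.31, adjusted p 0.002), with a list median of 0, and Myc itself differed by 0.40 (adjusted p 0.676). Of 19 respiratory chain genes only Sdha passed (-0.85, adjusted p 0.0325), and it was lost without each mouse but AE9a passage 4 mouse 1, with adjusted p up to 0.169. The 7 housekeeping genes gave 0 calls with limma, 0 at an unadjusted p under 0.05, and a median of 0.05, which was -0.08 after cyclic loess and -0.02 after quantile normalization, and with array weights 2 passed higher and 1 lower. Array weights gave 1887 higher and 2428 lower over all 22180 genes.

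The remaining cell types gave scattered calls. The plasmacytoid dendritic cell and lymphoid progenitor genes Siglech (-1.92 ± 0.30, adjusted p 8.79e-05) and Ly6d (-2.82 ± 0.22, adjusted p 5.65e-10), with the MHC class II activator Ciita (-0.62, adjusted p 0.0332), passed lower among 15 genes, and Ciita did not pass without any of the 6 mice, with adjusted p from 0.0513 to 0.117. Among 13 megakaryocyte and platelet genes Selp, which encodes P-selectin, was higher (1.84 ± 0.37, adjusted p 0.00188), and Gp9 (-0.79), Itgb3 (-1.32) and Clec1b (-0.68) were lower, a count of 3 that was 1 without normal control 2. Clec1b was also lost without mouse 2 or 3 or normal control 1, and Itgb3 without mouse 1. Of 18 stroma and endothelium genes only Cxcl12, given above, passed. Of 15 genes reported for t(8;21) leukaemia, Cdkn1a and the desmosomal gene Jup (1.65, adjusted p 0.00908) were higher and Ncam1, Pax5 and Cd200 lower. Jup was lost without mouse 2 or 3, and Cd200 without mouse 1 or 3 or normal control 1 or 2. In human t(8;21) leukaemia NCAM1 and PAX5 are known for being raised in many cases. The mouse values here are set against normal marrow, which holds B cell precursors, and not against other leukaemias, so they do not test this. Ncam1 was lower at 4.82, 5.37 and 5.27 in the AE9a passage 4 mice, against 8.93, 8.84 and 8.09 in the normal controls. Ptprc, which encodes CD45 and by which the cells were sorted, measured 11.02, 11.01 and 10.76 in the AE9a passage 4 mice, against 11.24, 11.53 and 10.81 in the normal controls.

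Normal control 1 differed from the other controls in sex-linked genes. Xist measured 11.62, 11.6 and 11.09 in the AE9a passage 4 mice, against 6.52, 10.96 and 10.99 in the normal controls, and the Y-linked gene Kdm5d measured 6.64, 5.93 and 6.1 in the AE9a passage 4 mice, against 8.12, 6.99 and 6.13 in the normal controls. Of the 4 sex-linked genes 0 passed with limma and 1 had an unadjusted p under 0.05. Without normal control 1 the count of passed genes was 701, and the part of this difference in the results was not tested.

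**Figure D4:**
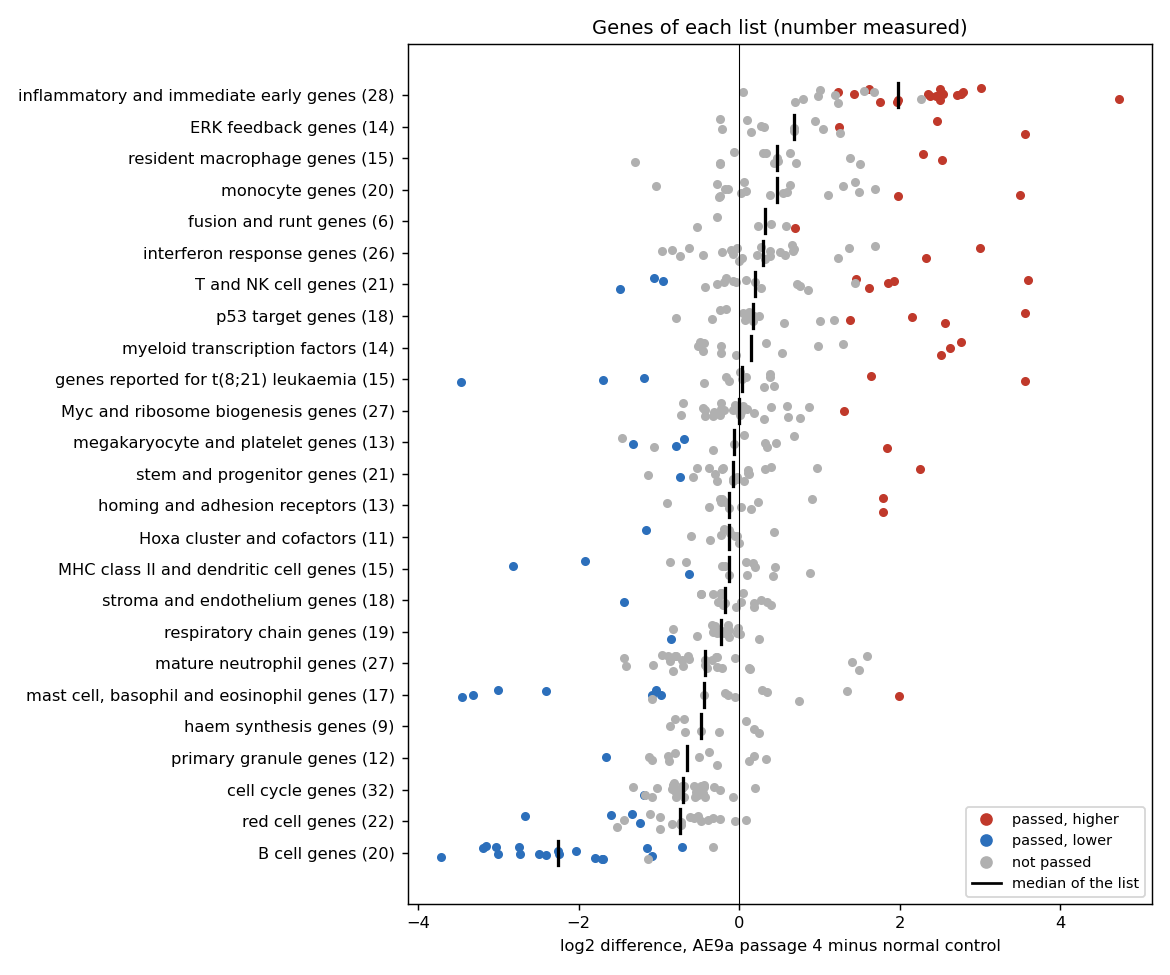
Log2 difference of AE9a passage 4 minus normal control for each measured gene of 25 lists, red where the gene passed higher, blue where it passed lower, with a black bar at the list median. The inflammatory list lies to the right with a median of 1.98 and the B cell list to the left with a median of -2.26.

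Late leukaemia was then set against early leukaemia, 3 AE9a mice at passage 1, which also tests whether the difference from normal marrow changed between the passages, since the controls cancel. Of 22180 genes 652 passed (2.94%), 449 higher (2.02%) and 203 lower (0.915%) at passage 4. The split was 756 higher and 558 lower after cyclic loess, 401 and 381 after quantile normalization and 693 and 799 when array SD was added to the model. Without AE9a passage 1 mouse 1 the count was 297, and without the other 5 mice it was 344 to 436. The 4 sex-linked genes, Xist and the Y-linked Kdm5d, Eif2s3y and Uty, had a median difference of 1.04 between these passages, and 0 of them passed. Against normal controls 1 of the 4 passed lower at passage 1, with a median of -1.33. Their mean was 8.45, 7.9 and 7.85 at passage 4, against 7.26, 7.48 and 6.55 at passage 1. Xist and Y-linked genes go opposite ways with sex, so these pooled values do not show whether sex differed between the passages. What part a sex difference would have in the other differences between the passages was not tested. Of the 14 largest rises over normal marrow 7 also passed here, Csta2, Stfa2, Stfa3, Csta3, Ccl7, Ecm1 and Gzmb, and so did 7 of the 14 largest falls, 5 of them among the immunoglobulin segments with Jchain and Prg2 beside them. These genes were chosen for extreme values on the same passage 4 arrays. The direction of these calls is therefore largely set by that choice, and they are no separate support.

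Stefin A genes and the monocyte attractants differed between the passages. Csta2 measured 4.71, 3.66 and 4.82 at passage 1, 4.26, 9.99 and 6.85 at passage 2, 10.36, 8.71 and 9.39 at passage 3 and 9.35, 10.4 and 10.82 at passage 4 (passage 4 minus passage 1 5.80 ± 0.70, adjusted p 1.02e-05). The passage 2 mice were spread over nearly the whole range, while all mice of passages 3 and 4 were high. Ccl2 measured 6.83, 7.16 and 6.16 at passage 1, 11.53, 11.3 and 11.28 at passage 2, 8.76, 11.32 and 11.48 at passage 3 and 11.37, 11.45 and 11.48 at passage 4 (4.71 ± 0.69, adjusted p 0.000101). Ccl7 measured 5.29, 5.19 and 5.36 at passage 1, 10.18, 9.91 and 9.82 at passage 2, 6.51, 9.96 and 10.18 at passage 3 and 9.21, 9.66 and 9.53 at passage 4 (4.19 ± 0.66, adjusted p 0.000226). Passage 3 mouse 1 was the lowest of the late mice for both chemokines, and at passage 1 Ccl2 did not pass against normal marrow (passage 1 minus normal control -1.24, adjusted p 0.283). Gzmb measured 4.64, 4.85 and 4.24 at passage 1, 5.19, 5.24 and 6.05 at passage 2, 6.29, 5.86 and 7.14 at passage 3 and 7.21, 9.08 and 9.1 at passage 4 (3.89 ± 0.49, adjusted p 1.47e-05).

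**Figure D5:**
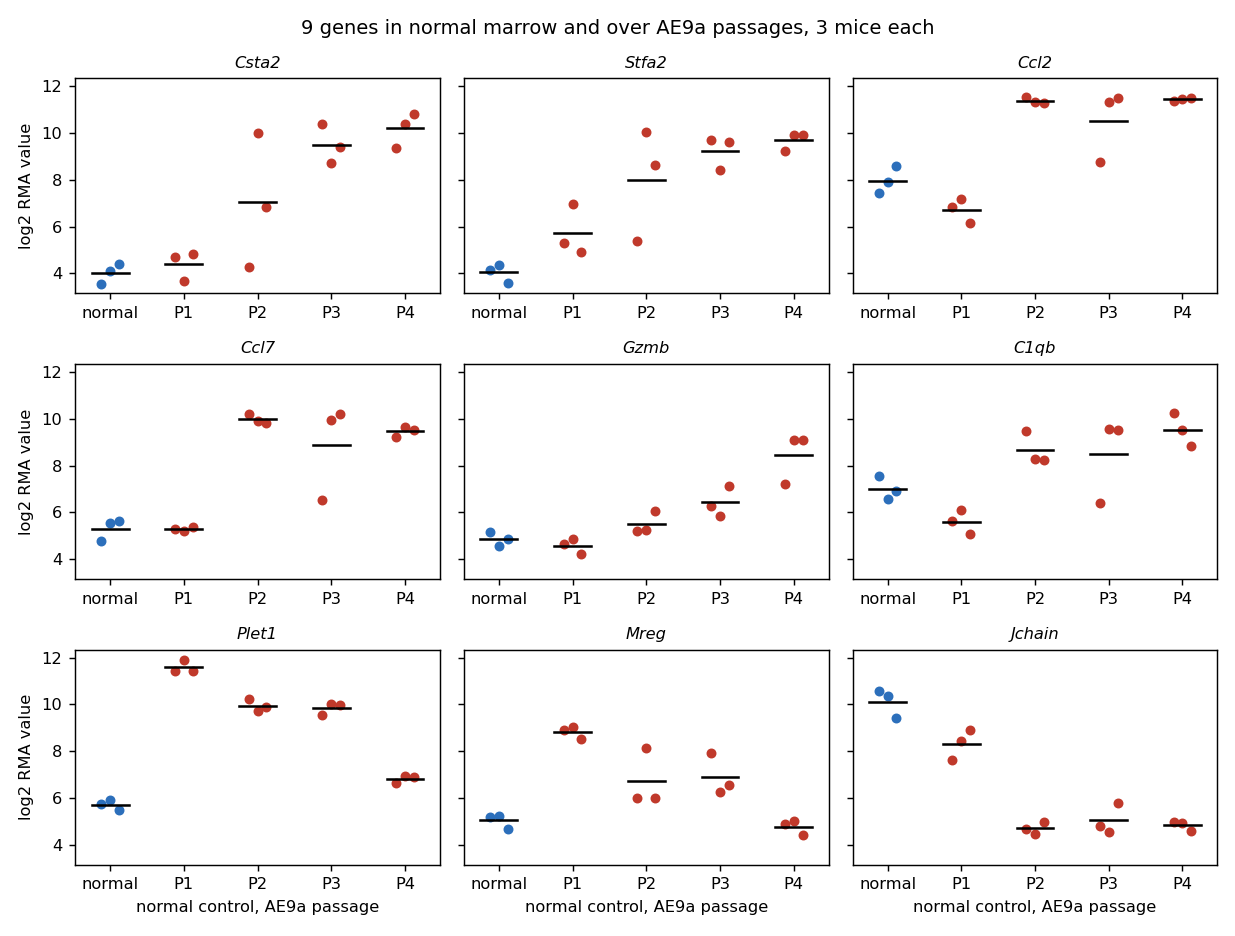
Log2 expression (vertical axes) of 9 genes in normal controls (blue) and AE9a mice of passages P1 to P4 (red), 3 mice each with a bar at the mean. Csta2 at passage 1 is at 3.66 to 4.82, Stfa2 there is at 4.92 to 6.95 with all 3 mice above the controls, both are high in all mice of passages 3 and 4, and Plet1 is at 11.41 to 11.91 at passage 1 and 6.64 to 6.94 at passage 4.

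Some rises over normal marrow did not pass between the passages. Il1a was 9.19 on average at passage 4 and 10.03 at passage 1 (-0.84 ± 0.83, adjusted p 0.704), and Errfi1 differed by 0.05 (adjusted p 0.981), Tnf by -0.02 (adjusted p 0.988) and Cxcl10 by -0.04 (adjusted p 0.987). Plet1, a surface gene of epithelial progenitors, measured 6.64, 6.94 and 6.89 at passage 4, against 11.44, 11.91 and 11.41 at passage 1 (-4.76 ± 0.37, adjusted p 2.09e-09), and its difference from normal marrow at passage 4 did not pass (1.10, adjusted p 0.0983). Mreg, which takes part in melanosome transport, measured 4.9, 5.02 and 4.41 at passage 4, against 8.91, 9.02 and 8.54 at passage 1 (-4.05 ± 0.49, adjusted p 1.08e-05), with normal controls at 5.21, 5.24 and 4.69. Both genes were thus high at passage 1 and near the controls at passage 4. Adgrl4, an adhesion receptor known from endothelium, was lower at passage 4 than at passage 1 (-3.80, adjusted p 5.42e-05) and than in normal marrow (-3.14, adjusted p 0.000218).

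Among the gene lists, 10 of 28 inflammatory and immediate early genes were higher at passage 4 than at passage 1 and 0 lower, with a median of 1.04. Transcription factors among them were Fos (3.25, adjusted p 0.000286), Egr3 (3.03), Egr1 (2.99), Fosb (2.74), Egr2 (2.33), Nr4a1 (2.11), Jun (1.73) and Atf3 (1.71), beside the early genes Ier2 (2.06) and Zfp36 (1.23). Fos measured 9.98, 10.04 and 9.81 at passage 4, with the normal controls at 9.25, 9.4 and 8.8. The count of 10 was 6 without AE9a passage 1 mouse 1. Red cell genes showed a further contrast: at passage 1, 18 of 22 were lower than in normal marrow with a median of -1.69 (over all genes 8.87% passed in that comparison, 3.22% higher and 5.64% lower), at passage 4 the count was 4 with a median of -0.73, and 2 (Car1 and Rhag) were higher at passage 4 than at passage 1. Without mouse 1 of passage 4 there were 12 lower than in normal marrow with a median of -1.42, and against passage 1 there was 1 higher with a median of 0.17 in place of 0.76. The carbonic anhydrase Car1 differed by 3.57 (adjusted p 0.00236), in a group where mouse 1 stood at 10.85. Of the T and NK cell genes 8 of 21 were higher at passage 4 than at passage 1, with Cd3g (2.66), Cd8a (2.51) and Prf1 (2.31) beside Gzmb, and of the interferon response genes 7 of 26, with Igtp (2.68), Oas2 (2.58) and Zbp1 (2.53) beside Cxcl9. The interferon count was 4 without AE9a passage 4 mouse 3 or without AE9a passage 1 mouse 1 or 2. Monocyte genes gave 5 of 20, among them the Fc receptor genes Fcgr4 (3.75) and Fcgr1 (2.48), and resident macrophage genes 4 of 15, led by C1qb (3.93, adjusted p 0.000512). At passage 1 these lists had negative medians against normal controls. They were -0.60 for T and NK cell genes (4 lower, 0 higher) and -0.56 for interferon response genes (4 lower, 1 higher). For monocyte genes the median was -0.46 (7 lower, 2 higher) and for resident macrophage genes -0.30 (1 lower, 1 higher). Cd3g, Igtp, Oas2, Zbp1, Fcgr4 and Fcgr1 did not pass against normal marrow at passage 4. Klf4, a factor of monocyte differentiation, was higher by 3.19 (adjusted p 0.000472) and Sox4 by 3.36 (adjusted p 8.8e-05), and Myc was 3.49-fold higher (adjusted p 0.00161). Of these, Klf4 and Myc did not pass against normal marrow at passage 4. Of 20 B cell genes 2 were lower at passage 4 than at passage 1, Ebf1 (-1.60) and Blnk (-1.47), with a list median of -0.77. No B cell gene passed without any of 5 of the 6 mice. The count was 1 with the replicate block, 7 with only the groups compared and 4 after cyclic loess. It was 4 after quantile normalization, 5 with array SD in the model and 11 with array weights. Over all 22180 genes the lower counts in these 6 settings were 189, 566, 558, 381, 799 and 1642.

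The other leukaemia arms of passage 4 gave other levels for some of these genes, in comparisons that were not tested here. The SD over probe sets was 1.66, 1.63 and 2.01 on the 3 arrays with added miR-126, against 1.99 to 2.06 for AE9a passage 4. Levels of the first 2 of these arrays are therefore less comparable. Csta2 measured 4.13, 4.51 and 3.81 in AE9a mice with added miR-126 and 3.67, 3.65 and 3.47 in AE9a mice lacking miR-126, with normal controls at 3.57, 4.09 and 4.42. Gzmb measured 4.62, 4.78 and 4.42 with added miR-126 and 4.54, 4.95 and 4.59 without miR-126. Cdkn1a measured 10.55, 10.81 and 9.93 with added miR-126 and 11.07, 11.22 and 9.6 without it, and Spib measured 4.56, 4.68 and 3.92 and 4.83, 4.43 and 4.72 in these arms. For Cdkn1a and Spib all 9 leukaemic mice of passage 4 were on the same side of the normal controls, and for Csta2 and Gzmb no mouse of the other arms reached the lowest AE9a mouse.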

How the data were processed

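RNA of sorted donor cells from 39 mice was measured on Affymetrix arrays, 1 array a mouse, and 6 arrays carry the main comparison. The values are the authors' deposited log2 expression values, made with RMA and Partek 6.0 per the submitters' processing notes. The SD over probe sets ran from 1.43 to 2.08 among the arrays and the median from 5.38 to 5.76, so the deposited values do not share 1 distribution. For background settings, filters, batch steps and the annotation build the sources used here give nothing.

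Groups came from titles. Of 27037 probe sets, 23521 carry 1 symbol in the platform annotation, 1814 several and 1702 none, and the last 2 kinds stayed out of the gene tests. Where a gene had several probe sets (1082 genes) the brightest on average stood for it, leaving 22180 genes to test. One linear model with 13 group means over all 39 arrays was fitted with empirical Bayes (limma 3.58.1, R 4.3.3). It had 26 residual degrees of freedom. A gene passed at a Benjamini-Hochberg adjusted p under 0.05 over all genes. A ± is the standard error, with a median of 0.222.

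Members and 27 lists (464 of 512 symbols measured) were chosen with earlier results of these data known. Genes were named as the 14 largest rises and falls that passed without overlap, 8 of each against passage 1, up to 6 of each list by adjusted p, and some fixed genes. The families by symbol and other members named in the text were added after values were seen. Lists got counts and medians and no test. Alternatives were other samples in the fit, a replicate block, variance prior, dim-gene filter, normalizations, array spread, probe sets, array weights, a 2-fold minimum and leaving out each mouse. The fit was tested on simulated data. Levels of different genes were not compared.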

Additional observations from a re-analysis of the deposited data

Results flagged for a closer look

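For 14 of the 28 genes named for the largest differences from normal marrow, the difference at passage 4 was itself different from that at passage 1, by limma's test of passage 4 minus passage 1. The log2 values of that difference were 5.80 for Csta2, 3.96 for Stfa2, 3.42 for Stfa3, 3.78 for Csta3, 4.19 for Ccl7, 2.00 for Ecm1 and 3.89 for Gzmb among the rises. Among the falls they were -3.89 for Igkv9-120, -3.48 for Jchain, -3.16 for Igkv4-59, -2.60 for Igkj1, -2.88 for Igh-VS107, -2.04 for Igkv1-133 and -1.32 for Prg2. The 28 genes were chosen for their extreme values at passage 4 and the test uses the same passage 4 arrays, so the direction of these differences is largely set by that choice.

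Probe sets that the gene tests left out also carried differences. Of 3516 probe sets with several symbols or none, 146 (4.15%) passed between AE9a passage 4 and the normal controls, 76 higher and 70 lower. They name no gene here.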

How the results depend on the processing

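The count of genes that passed between AE9a passage 4 and normal marrow, 975, was 613 with a 2-fold minimum, 2027 with array SD in the model, 1930 without arrays of low spread, which are all in other groups, and 4315 with array weights, and 537 to 886 when 1 mouse was left out. The count against passage 1, 652, was 1485 with only the groups compared in the fit, 1314 after cyclic loess, 1492 with array SD in the model, 1875 without arrays of low spread, 3691 with array weights and 297 to 436 when 1 mouse was left out, which leaves fewer samples. The causes of the other changes were not tested. With the replicate number as a block the counts were 928 and 610. Mice with the same number deviated from their group means with correlations of 0.16, 0.05 and 0.02 between AE9a passage 4 and normal controls. Between AE9a passage 4 and passage 1 these were -0.25, -0.14 and -0.18. With 3 mice a group such values cannot decide whether the numbers pair the mice. Of 183 named genes, 85 passed. Of these, 63 passed under every alternative in which they were tested. The other 22 did not pass under at least 1, as with Sesn2 (adjusted p 0.0596) under the block, and 0 changed sign with a call. The 2-fold minimum and the fit of every probe set were not applied to the named genes, and the dim-gene filter removed some of them. Few mice and dim probes limit what can be detected.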
